A study of Mus musculus with 39 samples.

Results

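Bone morphogenetic proteins (BMPs) are secreted ligands of the TGF-beta superfamily. Ligand dimers join a type I and a type II serine/threonine kinase receptor, the type I receptor phosphorylates SMAD1, SMAD5 and SMAD9, and these enter the nucleus with SMAD4 and regulate targets such as the Id genes; secreted antagonists such as noggin and chordin hold ligands away from the receptors. In the forebrain the pathway is known for dorsal patterning in the embryo and for the balance of neurogenesis and gliogenesis in the adult. The 10 genes described here were chosen by symbol, as members of this pathway. Their values were not the rule of choice, though earlier results of these data were known. The set holds the ligands Bmp3, Bmp4, Bmp6 and Bmp7 and the receptors Bmpr1a and Bmpr2. It also holds the antagonists Nog and Chrd and the signal transducers Smad1 and Smad5. These genes are 10 of the 51826 counted, and all 10 were found by identifier. All 10 passed the filter on low counts in each of the 5 comparisons.

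Polyadenylated RNA was sequenced from punches of 300 µm brain sections of C57BL/6J mice aged 8 to 12 weeks. The mice carried 1 gene-trap allele of Lmo4 (Lmo4gt/+), which encodes a LIM-only transcription cofactor, or were wild type, and the punched regions were the nucleus accumbens (NAc), a ventral striatal region, and the basolateral amygdala (BLA). There were 9 NAc libraries of Lmo4gt/+ mice, 10 NAc libraries of wild-type mice, 9 BLA libraries of Lmo4gt/+ mice and 11 BLA libraries of wild-type mice, from 20 mice of which 19 gave both regions. The allele was present in the whole animal, and the labels give no sex, litter or batch.

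Each library held 21255934 to 51021670 reads counted in genes. Lmo4 averaged 55.1 ± 9.58 CPM (counts scaled to a common total of gene counts; SD, n = 9) in Lmo4gt/+ NAc against 90.02 ± 11.6 CPM (n = 10) in wild-type NAc, and 88.5 ± 12.7 CPM (n = 9) in Lmo4gt/+ BLA against 160 ± 9.67 CPM (n = 11) in wild-type BLA. It was the only gene called between genotypes in either region. NAc library 122 is titled as Lmo4gt/+, whereas its genotype field says wild type. Its title placed it here with Lmo4gt/+, and its Lmo4 level of 71.9 CPM topped the 9 Lmo4gt/+ values and lay just above the lowest wild-type value, 71.6 CPM. The BLA library of the same mouse had 65.3 CPM of Lmo4, the lowest of the Lmo4gt/+ BLA libraries and below the wild-type BLA range of 138 to 174 CPM. Some libraries stood apart in markers of cell types. NAc libraries 122 (Lmo4gt/+) and 134 (wild type) had 547 and 914 CPM of Slc17a7, the vesicular glutamate transporter of cortical and amygdalar projection neurons, against 1.3 to 190 CPM in the other NAc libraries. BLA library 127 (Lmo4gt/+) had 504 CPM of Ttr, the transthyretin gene of the choroid plexus, against 0 to 140 CPM in the other BLA libraries. NAc library 149 (Lmo4gt/+) had the fewest gene counts and the largest share of reads not assigned to a gene, 38.1%. BLA libraries 149 and 159 (Lmo4gt/+) and 129 and 156 (wild type) had 909 to 1025 CPM summed over the markers of medium spiny neurons, the striatal projection neurons, against 260 to 638 CPM in the other BLA libraries. Beside the results of the 10 BMP genes that these libraries move, values without them are given. For the other pathway genes they are not.

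Promoter sequence from RefSeq (GRCm38.p6; 250 bases before to 50 after the start of the gene) was found for 7 of the 10 genes: Bmp4, Bmp6, Bmpr1a, Bmpr2, Chrd, Smad1 and Smad5, and not for Bmp3, Bmp7 and Nog. Shown are those of 4 genes that differed between the regions in both genotypes, an antagonist and a SMAD that were lower in the NAc (Chrd and Smad1) and a ligand and a SMAD that were higher there (Bmp6 and Smad5). The windows are chr16:20732877-20733176 on the plus strand for Chrd, chr8:79399379-79399678 on the minus strand for Smad1, chr13:38345466-38345765 on the plus strand for Bmp6 and chr13:56702760-56703059 on the plus strand for Smad5, the most upstream of 3 Smad5 windows. Each is written 5′ to 3′ along the gene, and capitals mark GGCGCC, the GC-rich element bound by SMAD1 and SMAD5, and CAGAC, a SMAD element, searched on both strands.
Chrd: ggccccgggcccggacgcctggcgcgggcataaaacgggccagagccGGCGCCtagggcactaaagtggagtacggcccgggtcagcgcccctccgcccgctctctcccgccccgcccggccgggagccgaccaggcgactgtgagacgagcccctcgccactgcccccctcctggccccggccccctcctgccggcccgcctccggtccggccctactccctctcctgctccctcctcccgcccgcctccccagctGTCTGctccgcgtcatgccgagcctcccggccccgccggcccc
Smad1: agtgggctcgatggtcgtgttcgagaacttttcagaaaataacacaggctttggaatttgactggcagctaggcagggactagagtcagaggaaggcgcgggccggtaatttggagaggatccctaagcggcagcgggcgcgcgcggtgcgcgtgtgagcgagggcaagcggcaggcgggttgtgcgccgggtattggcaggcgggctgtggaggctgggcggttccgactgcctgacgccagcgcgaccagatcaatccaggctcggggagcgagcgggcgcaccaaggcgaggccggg
Bmp6: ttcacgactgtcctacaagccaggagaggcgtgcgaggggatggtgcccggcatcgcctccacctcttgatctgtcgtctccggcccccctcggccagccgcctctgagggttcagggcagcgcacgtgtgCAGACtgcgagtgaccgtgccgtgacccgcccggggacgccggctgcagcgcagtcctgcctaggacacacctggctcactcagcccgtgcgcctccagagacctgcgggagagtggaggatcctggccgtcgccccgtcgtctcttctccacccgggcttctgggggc
Smad5: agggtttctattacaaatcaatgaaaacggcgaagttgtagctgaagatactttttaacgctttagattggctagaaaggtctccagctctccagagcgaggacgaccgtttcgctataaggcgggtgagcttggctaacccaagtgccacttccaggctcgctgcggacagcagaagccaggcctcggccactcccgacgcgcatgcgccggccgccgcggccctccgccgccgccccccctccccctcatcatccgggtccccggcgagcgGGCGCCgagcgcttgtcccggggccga

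GGCGCC was present in the windows of Chrd and Smad5 and not in those of Smad1 and Bmp6. Over the 32851 RefSeq promoter windows of this length, 11.9% held GGCGCC and 49.6% held CAGAC. In the most upstream window of each gene, 4 of the 7 held GGCGCC (Bmpr1a, Bmpr2, Chrd and Smad5) and 2 held CAGAC (Bmp6 and Chrd). The Chrd window was 78.3% G and C with 34 CG pairs, Smad1 65% with 31, Bmp6 69.3% with 27 and Smad5 63% with 31, against a median of 52.7% and 7 CG pairs over all windows. A match is a run of letters and not a bound site.

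Within the groups the genes lay at very different levels. Per kb of exon, Bmpr2 ranked highest in all 4 groups, at 127 ± 22.3 CPM per kb in Lmo4gt/+ NAc (SD, n = 9), 120 ± 5.89 in wild-type NAc (n = 10), 133 ± 9.44 in Lmo4gt/+ BLA (n = 9) and 132 ± 8.29 in wild-type BLA (n = 11), and its range did not meet that of the next gene. The lengths used may be too short for 3 genes, whose spans are smaller in the annotation of this build than in RefSeq on GRCm38: 106223 against 113803 bases for Bmpr2, 26522 against 29639 for Bmp3 and 9258 against 10960 for Chrd. Their levels per kb, and so their places in the order, may be overstated. In the BLA of both genotypes the order below Bmpr2 was Bmp3, Bmpr1a, Chrd, Smad5, Smad1, Nog, Bmp7, Bmp6 and Bmp4. Of these neighbours, Bmpr1a and Chrd, Chrd and Smad5, Smad1 and Nog, and Bmp6 and Bmp4 overlapped in range in both genotypes, and Bmp7 and Bmp6 in Lmo4gt/+ mice. In the NAc the order below Bmpr2 was Bmpr1a, Smad5, Smad1 and Bmp7 in both genotypes, followed by Bmp6, Chrd, Nog and Bmp3 in Lmo4gt/+ mice and by Bmp3, Chrd, Bmp6 and Nog in wild-type mice, at group means of 1.07 to 1.74 CPM per kb, with Bmp4 last. From Bmp7 down, each gene overlapped the next in range in both genotypes, as did Bmpr1a and Smad5, and Smad1 overlapped Bmp7 in Lmo4gt/+ mice. Bmp3 was second of the 10 in the BLA, at 35.6 ± 6.19 CPM per kb in Lmo4gt/+ mice and 37.1 ± 5.87 in wild-type mice. In the NAc it was ninth in Lmo4gt/+ mice, at 1.07 CPM per kb, and sixth in wild-type mice, at 1.74. Without libraries 122 and 149 it was ninth in Lmo4gt/+ mice, at 0.392, and without library 134 it was ninth in wild-type mice, at 0.913; these libraries were left out after seeing the data, here and in the correlations given further on.

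**Figure D1:**
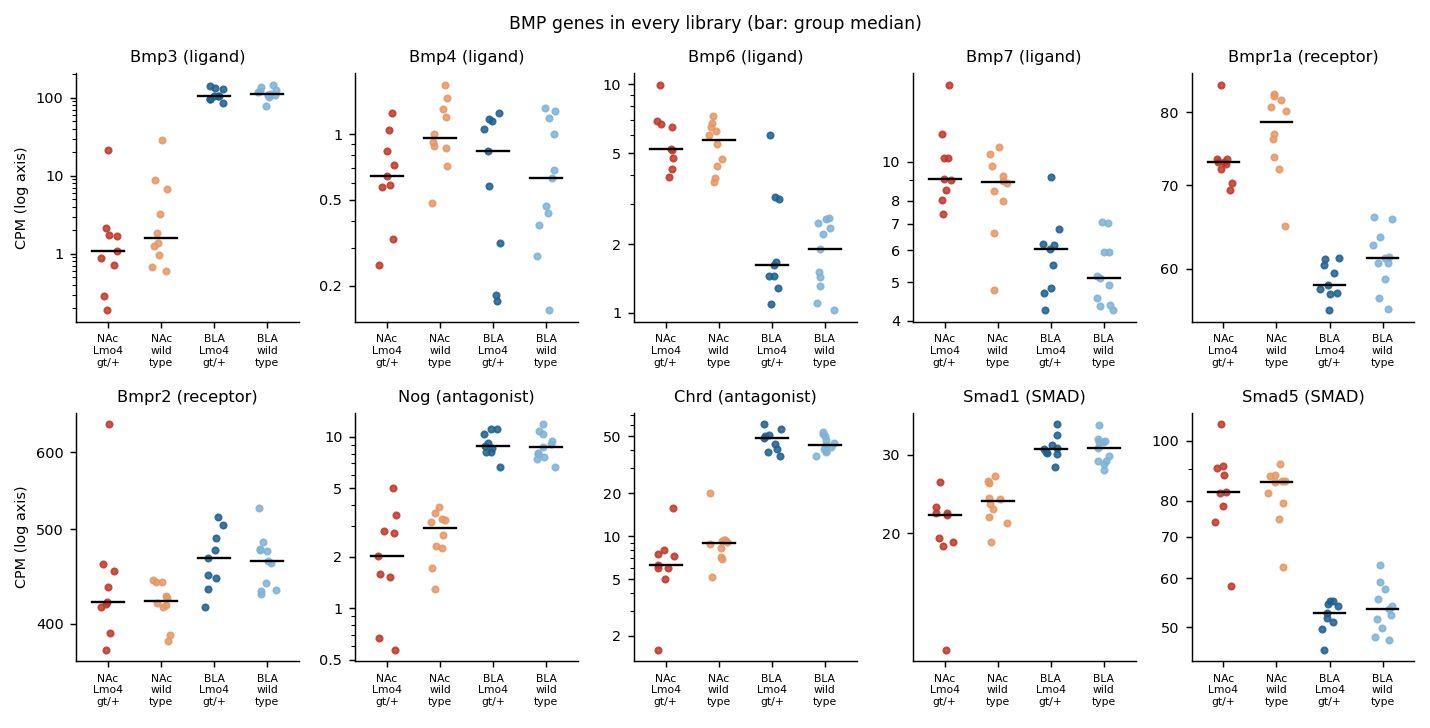
CPM of the 10 BMP genes on log axes with a separate scale for each panel, 1 point per library, for NAc Lmo4gt/+ (n = 9), NAc wild type (n = 10), BLA Lmo4gt/+ (n = 9) and BLA wild type (n = 11), with a bar at the group median. Bmp3, Nog, Chrd and Smad1 lie lower in every NAc library than in any BLA library.

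The NAc was compared with the BLA of the same mice, within each genotype. In Lmo4gt/+ mice (18 libraries of 9 mice) 8 of the 10 genes were called at an adjusted p under 0.05 (edgeR), against 52.7% of the 17026 genes tested; 4 were higher in the NAc (background 26.2%) and 4 lower (26.4%). In wild-type mice (20 libraries of 10 mice) 9 of the 10 were called, against 59.6% of 16887, 4 higher (31.1%) and 5 lower (28.5%). In both genotypes Bmp6, Bmp7, Bmpr1a and Smad5 were higher and Bmp3, Nog, Chrd and Smad1 were lower, so that 8 of 10 were called in the same direction in both, against 47.9% of the 16680 genes tested in both. With most tested genes differing between these regions, the counts alone do not set the BMP genes apart; the median log2 fold change of the 10 was -0.12 in Lmo4gt/+ mice and 0.00 in wild-type mice, beside 0.01 and 0.04 over all genes tested.

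The ligand Bmp3, a divergent BMP known to oppose the bone-forming members of the family, showed the widest difference. Its lowest, median and highest levels were 0.188, 1.08 and 21.2 CPM in Lmo4gt/+ NAc and 84.9, 105 and 142 CPM in Lmo4gt/+ BLA. In wild-type mice they were 0.605, 1.61 and 28.5 CPM in the NAc and 78.7, 113 and 148 CPM in the BLA. The regions did not overlap in either genotype, and Bmp3 was lower in the NAc in 9 of 9 Lmo4gt/+ and 10 of 10 wild-type mice. The log2 fold change was -6.23 ± 0.65 in Lmo4gt/+ mice (SE; edgeR adjusted p = 4.59e-05; 74.96-fold lower) and -5.26 ± 0.66 in wild-type mice (adjusted p = 7.15e-05; 38.3-fold lower). The highest NAc values belonged to libraries 122 and 134, those with the most Slc17a7. Without mice 122, 127, 129, 134, 149, 156 and 159, whose libraries were described above, 5 Lmo4gt/+ and 7 wild-type mice remained, and the log2 fold change was -6.96 in Lmo4gt/+ mice (adjusted p = 7.25e-09) and -5.34 in wild-type mice (adjusted p = 0.000317).

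Bmp6 and Bmp7, closely related ligands that are known from iron homeostasis and from kidney and eye development, were higher in the NAc. Bmp6 had 3.94, 5.22 and 9.97 CPM (lowest, median, highest) in Lmo4gt/+ NAc and 1.10, 1.61 and 6.00 CPM in Lmo4gt/+ BLA. In wild-type mice it had 3.75, 5.73 and 7.26 CPM in the NAc and 1.02, 1.91 and 2.60 CPM in the BLA. The wild-type ranges were separate, whereas in Lmo4gt/+ mice the BLA library 127 reached into the NAc range; Bmp6 was higher in the NAc in 8 of 9 Lmo4gt/+ and 10 of 10 wild-type mice. The log2 fold change was 1.44 ± 0.25 in Lmo4gt/+ mice (edgeR adjusted p = 0.000233; 2.72-fold) and 1.54 ± 0.17 in wild-type mice (adjusted p = 5.68e-07; 2.91-fold). The 3′ end of Bmp6 shares 236 bases with Txndc5 on the opposite strand, which averaged 61.3 CPM over the libraries. Whether counting used strand is not given in the sources used here, so reads of that stretch cannot be told apart. Txndc5 itself differed by a log2 of 0.19 ± 0.06 in Lmo4gt/+ mice and 0.16 ± 0.06 in wild-type mice.

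Bmp7 averaged 9.98 ± 2.49 CPM in Lmo4gt/+ NAc (SD, n = 9; range 7.38 to 15.6) and 5.97 ± 1.46 CPM in Lmo4gt/+ BLA (n = 9; 4.25 to 9.17). In wild-type mice it averaged 8.60 ± 1.81 CPM in the NAc (n = 10; 4.78 to 10.9) and 5.34 ± 1.02 CPM in the BLA (n = 11; 4.25 to 7.05). The ranges overlapped in both genotypes, with 8 of 9 and 9 of 10 mice higher in the NAc. Its fitted log2 fold change was 0.66 ± 0.15 in Lmo4gt/+ mice (edgeR adjusted p = 0.00183) and 0.58 ± 0.13 in wild-type mice (adjusted p = 0.00109).

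Bmp4, a ligand that patterns the dorsal neural tube, was near the limit of detection. It had 0.250, 0.642 and 1.26 CPM (lowest, median, highest) in Lmo4gt/+ NAc and 0.170, 0.840 and 1.25 CPM in Lmo4gt/+ BLA, and 0.484, 0.965 and 1.699 CPM in wild-type NAc and 0.154, 0.632 and 1.33 CPM in wild-type BLA. These levels rest on 4 to 64 reads a library, and the regions overlapped in both genotypes. Neither difference passed the threshold: the log2 value was -0.08 (95% interval -0.81 to 0.65; edgeR adjusted p = 0.869) in Lmo4gt/+ mice and 0.55 (-0.13 to 1.23; adjusted p = 0.150) in wild-type mice. At this depth a difference of 1.5-fold in Bmp4 was within the interval in each genotype.

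The receptors differed little. Bmpr1a, a type I receptor for BMP ligands, averaged 73.5 ± 4.26 CPM in Lmo4gt/+ NAc and 58.7 ± 1.92 CPM in Lmo4gt/+ BLA (SD, n = 9 each), and 77.2 ± 5.71 CPM in wild-type NAc (n = 10) and 61.2 ± 3.25 CPM in wild-type BLA (n = 11). Ranges were separate in Lmo4gt/+ mice, at 69.4 to 84.2 CPM in the NAc and 55.6 to 61.2 CPM in the BLA. In wild-type mice the lowest NAc library, 134 with 64.9 CPM, fell within the BLA range, which reached 66.0 CPM. Bmpr1a had a log2 fold change of 0.25 ± 0.05 in Lmo4gt/+ mice (edgeR adjusted p = 0.000966) and 0.24 ± 0.05 in wild-type mice (adjusted p = 0.000293).

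Bmpr2, the type II receptor that activates the type I partner, was slightly lower in the NAc of wild-type mice, while the difference in Lmo4gt/+ mice did not pass. In Lmo4gt/+ mice it had 376, 421 and 642 CPM (lowest, median, highest) in the NAc and 417, 467 and 515 CPM in the BLA, ranges that overlapped, and a log2 fold change of -0.16 ± 0.10 (95% interval -0.36 to 0.05; edgeR adjusted p = 0.197). In wild-type mice it had 384, 423 and 444 CPM in the NAc and 429, 464 and 526 CPM in the BLA, also overlapping, and a log2 fold change of -0.24 ± 0.05 (edgeR adjusted p = 0.000564). The highest Lmo4gt/+ NAc value, 642 CPM, came from library 149, and the next was 461 CPM. Without mouse 149 the number of called BMP genes in Lmo4gt/+ mice was 9 in place of 8, and without all 7 mice named above Bmpr2 was at -0.18 with an adjusted p of 0.0106. That the NAc to BLA difference of Bmpr2 differed between the genotypes was not shown (interaction log2 0.10 ± 0.11, edgeR p = 0.390).

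The antagonists were both lower in the NAc. Chrd encodes chordin, which binds BMPs and is cut by tolloid proteases. It had 1.60, 6.29 and 15.7 CPM (lowest, median, highest) in Lmo4gt/+ NAc and 36.3, 48.2 and 61.1 CPM in Lmo4gt/+ BLA. In wild-type mice it had 5.17, 8.97 and 19.97 CPM in the NAc and 36.4, 43.1 and 53.9 CPM in the BLA. Every NAc library was below every BLA library of its genotype, and the log2 fold change was -2.95 ± 0.19 in Lmo4gt/+ mice (edgeR adjusted p = 4.99e-08; 7.72-fold lower) and -2.41 ± 0.15 in wild-type mice (adjusted p = 3.86e-08; 5.30-fold lower). The start of Chrd overlaps Thpo on the opposite strand by 1385 bases in this annotation. Thpo averaged 3.71 CPM over the libraries and was itself lower in the NAc, at -0.99 ± 0.17 in Lmo4gt/+ and -0.77 ± 0.15 in wild-type mice, and the 2 genes could share reads.

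Nog encodes noggin, which covers the receptor-binding faces of BMPs. It had 0.571, 2.02 and 5.06 CPM (lowest, median, highest) in Lmo4gt/+ NAc and 6.69, 8.80 and 11.1 CPM in Lmo4gt/+ BLA, and 1.297, 2.94 and 3.87 CPM in wild-type NAc and 6.64, 8.78 and 11.9 CPM in wild-type BLA. The regions did not overlap, and all 9 Lmo4gt/+ and all 10 wild-type mice were lower in the NAc. Nog had a log2 fold change of -2.26 ± 0.26 in Lmo4gt/+ mice (edgeR adjusted p = 5.41e-06; 4.805-fold lower) and -1.80 ± 0.13 in wild-type mice (adjusted p = 9.29e-09; 3.47-fold lower).

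The SMADs, which share the same receptors as activators, went opposite ways. Smad5 had 58.4, 82.7 and 107 CPM (lowest, median, highest) in Lmo4gt/+ NAc and 45.9, 52.7 and 55.2 CPM in Lmo4gt/+ BLA, and 62.5, 85.9 and 91.9 CPM in wild-type NAc and 47.6, 53.5 and 63.0 CPM in wild-type BLA. The log2 fold change was 0.59 ± 0.09 in Lmo4gt/+ mice (edgeR adjusted p = 3.46e-05) and 0.55 ± 0.05 in wild-type mice (adjusted p = 1.08e-07), and every mouse was higher in the NAc. The lowest NAc values were those of library 122 in Lmo4gt/+ mice, above the BLA range of that genotype, and of library 134 in wild-type mice, within it.

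Smad1 had 11.0, 22.01 and 26.1 CPM in Lmo4gt/+ NAc and 28.2, 30.9 and 35.2 CPM in Lmo4gt/+ BLA, and 19.1, 23.6 and 26.9 CPM in wild-type NAc and 27.7, 31.1 and 34.9 CPM in wild-type BLA. The regions were separate in both genotypes and every mouse was lower in the NAc. Smad1 had a log2 fold change of -0.71 ± 0.08 in Lmo4gt/+ mice (edgeR adjusted p = 2.58e-06) and -0.48 ± 0.05 in wild-type mice (adjusted p = 5.20e-07). Without the 7 mice named above all regional calls were kept. The log2 fold changes were then -2.92 in Lmo4gt/+ and -2.56 in wild-type mice for Chrd, -2.52 and -1.81 for Nog, -0.69 and -0.48 for Smad1, 1.73 and 1.697 for Bmp6, 0.51 and 0.60 for Bmp7, 0.64 and 0.61 for Smad5, and 0.24 and 0.31 for Bmpr1a.

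**Figure D2:**
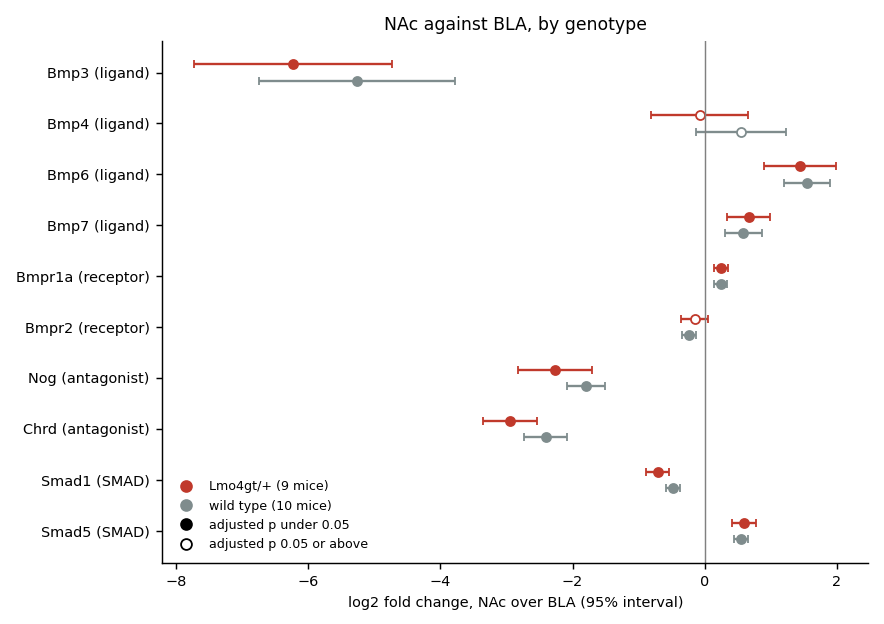
Log2 fold change of each BMP gene, NAc over BLA of the same mice, with 95% intervals; Lmo4gt/+ (9 mice) stands above wild type (10 mice) for each gene, and filled points have an adjusted p under 0.05. Bmp3, Nog, Chrd and Smad1 lie left of 0 in both genotypes and Bmp6, Bmp7, Bmpr1a and Smad5 right of it, while Bmp4 crosses 0 in both.

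Markers of some cell types moved with the region as well. All 9 glutamatergic markers were lower in the NAc in both genotypes. Of these, 9 were called in Lmo4gt/+ mice and 8 in wild-type mice, against 26.4% and 28.5% of all genes called lower. Their summed level was 1670 to 3032 CPM in Lmo4gt/+ NAc and 1494 to 3838 CPM in wild-type NAc. In the BLA it was 5604 to 6365 CPM in Lmo4gt/+ mice and 5158 to 6324 CPM in wild-type mice. All 10 markers of medium spiny neurons and all 8 of oligodendrocytes were called higher in the NAc in both genotypes. Of all genes tested, 26.2% in Lmo4gt/+ mice and 31.1% in wild-type mice were called higher. The summed level of the spiny neuron markers was 3387 to 5813 CPM in Lmo4gt/+ NAc and 2947 to 5932 CPM in wild-type NAc, against 260 to 930 CPM in Lmo4gt/+ BLA and 284 to 1025 CPM in wild-type BLA. For oligodendrocyte markers it was 3303 to 6332 CPM and 3868 to 8121 CPM in the NAc of Lmo4gt/+ and wild-type mice, against 1453 to 2627 CPM and 1685 to 2430 CPM in their BLA. Summed choroid plexus and ependymal markers had medians of 42.0 and 44.9 CPM in the NAc and 8.83 and 12.8 CPM in the BLA. Much of the NAc sum was Clic6, with medians of 28.5 CPM in Lmo4gt/+ and 30.5 CPM in wild-type mice. Ttr had lower medians in the NAc, at 0.290 and 0.0288 CPM, than in the BLA, at 2.45 and 2.65 CPM. Of these 8 markers, 5 were tested in Lmo4gt/+ mice, with 3 called higher and 1 lower. In wild-type mice 3 were tested, with 3 called higher. Of 8 microglia markers, 0 were called in Lmo4gt/+ mice (52.7% of all genes) and 1 in wild-type mice (59.6%). Of 7 interneuron markers, 2 were called higher and 2 lower in Lmo4gt/+ mice, and 2 higher and 4 lower in wild-type mice. Of 8 meningeal markers tested, 3 were called higher and 1 lower in Lmo4gt/+ mice, and 5 higher and 1 lower in wild-type mice. Of 7 endothelial markers, 1 was called higher in Lmo4gt/+ mice and 4 in wild-type mice, and 0 lower. No marker of these lists was at 0 in every library of a group, and the part of these markers in the differences of the BMP genes was not tested. In punches, fewer cells of a type and less RNA per cell cannot be told apart.

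How Bmp3, Chrd, Bmp7 and Smad5 varied together within the NAc rested largely on the libraries that stood apart. After removing group means, the log2 CPM of Chrd and Bmp3 correlated with r = 0.75 over the 19 NAc libraries, and with r = 0.36 over the 16 that remain without libraries 122, 134 and 149; over the 20 BLA libraries r was -0.03. Bmp7 had r = -0.63 with Bmp3 and -0.79 with Chrd over the 19 libraries, and -0.10 and -0.24 over the 16. For Smad5 these values were -0.81 with Bmp3 and -0.78 with Chrd over the 19 libraries, and -0.35 and 0.16 over the 16. Some other pairs had a higher r over the 16 libraries. Bmpr1a and Bmpr2 had r = 0.07 over the 19 and 0.52 over the 16, and Nog and Smad1 0.24 and 0.43. Smad1 and Smad5 changed sign, from -0.39 to 0.38. Both genes of a pair share the dissection and the depth of each library, and these values are descriptions from 45 pairs of genes. The 3 named genes most like Bmp3 over all 39 libraries, of 13410 genes searched, were Sel1l3, Rspo2 and the cortical transcription factor Tbr1 (r = 0.93 each). Those most like Chrd were Kcnj9, Zmat4 and Cpeb1 (r = 0.85 to 0.88). For Bmp6 they were Igf2, which is on the list of meningeal markers, Elovl7 and Cgnl1 (0.67 to 0.70). For Bmp7 they were Tspan12, Slc6a13, which is on the same list, and Tmcc2 (0.66 to 0.67). For Nog they were Ckap4, Prr13 and Adra2a (0.69 to 0.71), and for Bmp4 Vmn2r1, Coch and Gpm6b (0.58 to 0.60). For Bmpr2 they were Adam22, Zfp106 and Camsap2 (0.89 to 0.92), for Smad1 Crebzf, Gcsh and Mtx2 (0.82 to 0.84), and for Smad5 Rbm15, Tnks and Map3k2 (0.78 to 0.79). Over the 35 libraries that remain without NAc libraries 122, 134 and 149 and BLA library 127, r of the genes named was 0.80 to 0.83 for Bmp3, 0.76 to 0.85 for Bmpr2, 0.70 to 0.73 for Nog and 0.51 to 0.63 for Bmp4. It was 0.35 to 0.60 for Chrd, 0.39 to 0.54 for Bmp6, 0.39 to 0.62 for Bmp7, 0.54 to 0.61 for Smad1 and 0.53 to 0.62 for Smad5. The genes were picked as the highest of 13410 over the 39 libraries, which include these 35, so the second values are no separate check. Those of Bmp4 rest on 4 to 64 reads a library.

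**Figure D3:**
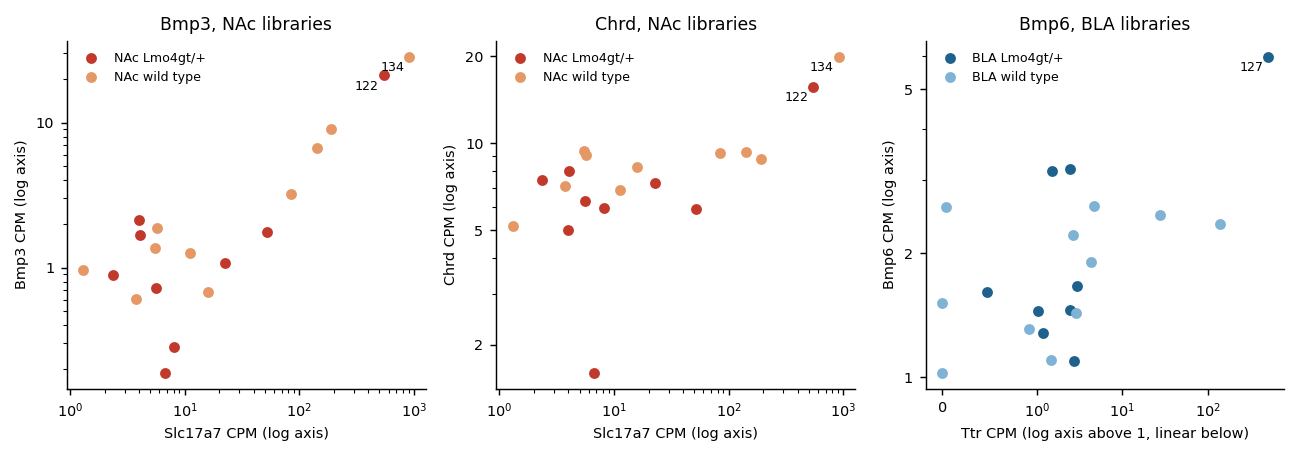
Bmp3 and Chrd against Slc17a7 in the 19 NAc libraries, and Bmp6 against Ttr in the 20 BLA libraries, in CPM, 1 point per library. NAc libraries 122 and 134 are highest in Slc17a7, Bmp3 and Chrd, and BLA library 127 is highest in Ttr (504 CPM) and Bmp6 (6.00 CPM).

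The rest of the pathway, 59 genes in fixed lists by role, of which 58 were in the files and 47 passed the filter on low counts in both regional comparisons, differed about as widely. In the NAc against the BLA, 32 of 47 were called in Lmo4gt/+ mice (15 higher, 17 lower), against 52.7% of all genes tested (26.2% higher, 26.4% lower). In wild-type mice 36 of 47 were called (20 higher, 16 lower), against 59.6% (31.1% higher, 28.5% lower), and 31 were called in the same direction in both genotypes, against 47.9%. Among other ligands, Bmp2 was lower, at a log2 fold change of -0.92 ± 0.10 in Lmo4gt/+ mice and -0.96 ± 0.10 in wild-type mice, and Gdf11 was at -0.62 ± 0.07 and -0.66 ± 0.06. Gdf10 passed in Lmo4gt/+ mice (-0.43 ± 0.13, edgeR adjusted p = 0.0116) and not in wild-type mice (-0.15 ± 0.15, adjusted p = 0.396); its interaction with genotype was not called.

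Of 11 other receptors and co-receptors tested, 8 were called in Lmo4gt/+ mice (52.7% of all genes) and 9 in wild-type mice (59.6% of all genes). The activin type II receptor genes split: Acvr2b was higher in the NAc, at 0.46 ± 0.09 in Lmo4gt/+ mice and 0.50 ± 0.06 in wild-type mice. Acvr2a was lower, at -0.56 ± 0.09 and -0.37 ± 0.14. In wild-type mice Acvr2a passed narrowly (edgeR adjusted p = 0.0427), and 4 of 10 mice were higher in the NAc. The BMP co-receptors of the repulsive guidance family split too, with Rgma at 0.63 ± 0.10 in Lmo4gt/+ mice and 0.69 ± 0.08 in wild-type mice and Rgmb at -0.44 ± 0.06 and -0.33 ± 0.06. The type I receptor Acvr1 was at -0.51 ± 0.08 and -0.35 ± 0.06, and the betaglycan gene Tgfbr3 at 0.42 ± 0.16 and 0.58 ± 0.06, in the same order of genotypes.

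The other antagonists and extracellular modulators spread the furthest, with 11 of 17 called in Lmo4gt/+ mice (52.7% of all genes) and 12 of 17 in wild-type mice (59.6% of all genes). Fst, which encodes the activin and BMP binder follistatin, was higher in the NAc by a log2 of 2.88 ± 0.37 in Lmo4gt/+ mice and 2.33 ± 0.34 in wild-type mice. The chordin relative Chrdl2 was higher by 1.40 ± 0.37 and 1.65 ± 0.48, and the follistatin relative Fstl3 by 0.66 ± 0.18 and 0.58 ± 0.22. Sostdc1, a BMP and WNT antagonist, was lower at -2.96 ± 0.36 in Lmo4gt/+ mice and -3.37 ± 0.72 in wild-type mice. It had 0 to 26 reads a library in Lmo4gt/+ NAc and 0 to 44 in wild-type NAc. In Lmo4gt/+ BLA its highest level was 8.31 CPM, against a median of 2.12 CPM. Fst had 2 to 42 reads in Lmo4gt/+ BLA and 4 to 55 in wild-type BLA, and Chrdl2 had 5 to 45 and 0 to 18. The tolloid protease gene Tll1, whose product cleaves chordin, was lower at -2.26 ± 0.22 and -1.89 ± 0.16, and the antagonist Nbl1 at -1.57 ± 0.11 and -1.42 ± 0.10. Chrd and Tll1 were thus both lower in the NAc.

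Of the intracellular genes, Smad4, the common partner, was higher at 0.61 ± 0.08 in Lmo4gt/+ mice and 0.50 ± 0.05 in wild-type mice. Smad9, the third SMAD of the BMP branch, was lower at -0.71 ± 0.12 and -0.72 ± 0.12, as Smad1 was. The ubiquitin ligase genes Smurf1 (0.63 ± 0.06 and 0.63 ± 0.05) and Smurf2 (0.65 ± 0.08 and 0.61 ± 0.05) and the SMAD corepressor gene Ski (0.54 ± 0.09 and 0.57 ± 0.05) were higher. Among targets, Id4 was higher by 1.91 ± 0.09 in Lmo4gt/+ mice and 1.85 ± 0.11 in wild-type mice, and Id3 by 0.32 ± 0.12 and 0.59 ± 0.11. Id2 was lower at -0.93 ± 0.14 and -0.84 ± 0.12 and Hey1 at -0.63 ± 0.07 and -0.54 ± 0.06. Msx1 did not pass in Lmo4gt/+ mice (0.42 ± 0.46, edgeR adjusted p = 0.471) and passed in wild-type mice (0.85 ± 0.31, adjusted p = 0.0239); the difference between them was not called. The targets did not move one way.

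**Figure D4:**
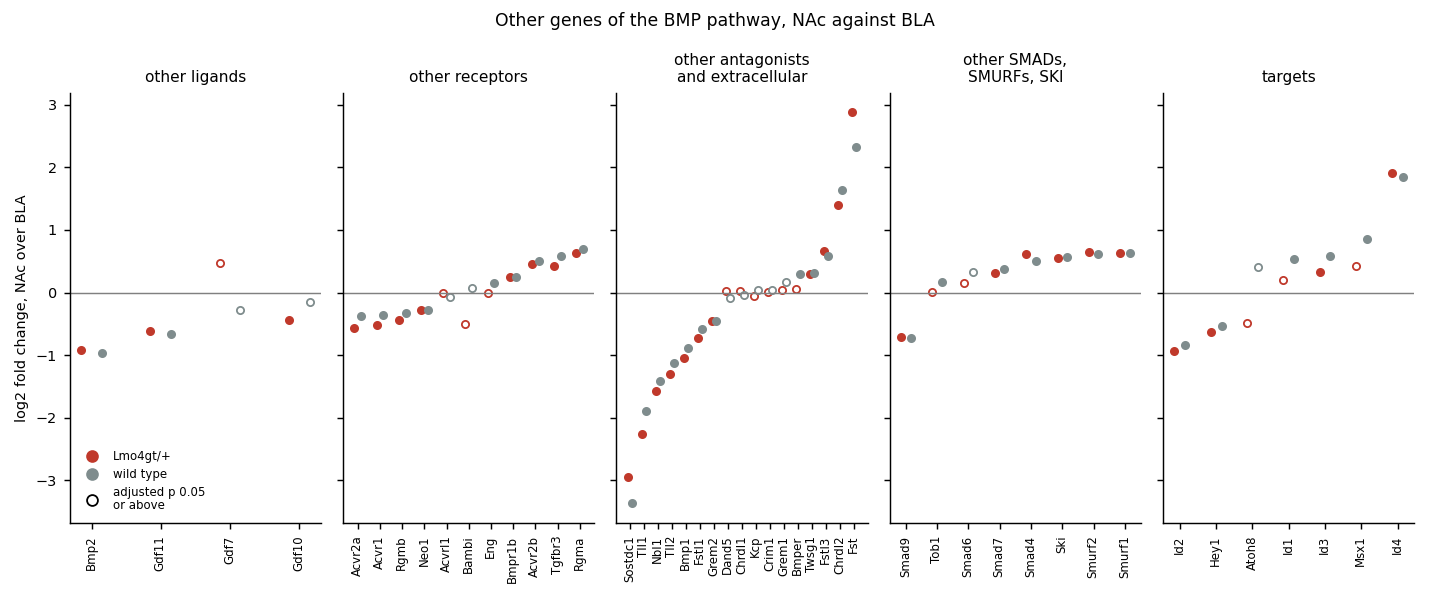
Log2 fold change, NAc over BLA, of the other pathway genes tested in both genotypes, by role, with Lmo4gt/+ left of wild type for each gene and open points at an adjusted p of 0.05 or above. Fst, at 2.88 and 2.33, is the highest and Sostdc1, at -2.96 and -3.37, the lowest. Both rest on few reads in a region, Fst in the BLA and Sostdc1 in the NAc.

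The comparison of Lmo4gt/+ with wild-type mice was made to look for genes regulated by LMO4. In the NAc, 0 of the 10 BMP genes were called by edgeR, DESeq2 or limma voom, against 0.00588% of the 16999 genes tested (Lmo4 alone). At an unadjusted p under 0.05 there were 0 in the main edgeR fit, against 2.67% of all genes. There was 1 by DESeq2 against 3.06%, and 1 by voom against 2.58%, which was Bmp4 in both. Other edgeR settings with no library left out gave Smad1 (p = 0.0224, all 39 libraries in 1 model), beside 765 of 18344 genes. With library totals alone it was Bmp4 (edgeR p = 0.0497), beside 457 of 16999 genes. Neither was called. In the BLA, 0 of 10 were called by any of these tools, against 0.00585% of 17087 (again Lmo4), and 0 had an unadjusted p under 0.05 by any of them, against 4.11% of all genes by edgeR, 4.5% by DESeq2 and 4.3% by voom. The median log2 fold change of the 10 genes was -0.11 in the NAc and 0.03 in the BLA, beside 0.00 over all genes in each region.

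Among the ligands in the NAc, Bmp4 averaged 0.694 ± 0.322 CPM in Lmo4gt/+ mice (SD, n = 9) and 1.06 ± 0.366 CPM in wild-type mice (n = 10), ranges that overlapped. Its log2 fold change was -0.58 ± 0.29 (edgeR p = 0.0547, adjusted p = 0.9999), and -0.34 without libraries 122, 134 and 149. Bmp3 averaged 3.32 ± 6.73 CPM in Lmo4gt/+ mice and 5.41 ± 8.60 CPM in wild-type mice, a log2 fold change of -0.73 ± 0.90, and that value turned on single libraries. It was -2.32 without library 122 (p = 0.00734, adjusted p = 0.952), -1.23 without libraries 122, 134 and 149, and -0.04 with the leading component of the marker genes as a covariate. Bmp6 (0.15 ± 0.18) and Bmp7 (0.26 ± 0.16) were not called, with 95% intervals of the fold of 0.858 to 1.44 and 0.956 to 1.49; without libraries 122, 134 and 149 they were at a log2 of -0.01 and 0.09.

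Chrd in the NAc averaged 7.03 ± 3.76 CPM in Lmo4gt/+ mice and 9.32 ± 3.99 CPM in wild-type mice, and its log2 fold change of -0.40 ± 0.27 did not pass (edgeR p = 0.156, adjusted p = 0.9999). Without library 122 it was -0.64 (p = 0.0142, adjusted p = 0.952), and without libraries 122, 134 and 149 it was -0.30 (p = 0.0272, adjusted p = 1). With the marker component as a covariate it was -0.21. Of the glutamatergic markers tested in this comparison, 7 of 8 had a negative log2 fold change, with a median of -0.64 and none called, and their part in the Chrd and Bmp3 values was not tested otherwise. Other marker lists leaned to a side too. All 8 oligodendrocyte markers (median -0.27) and 7 of 8 microglia markers (-0.07) were negative. Of 10 markers of medium spiny neurons 9 were positive (median 0.11), and none in these lists was called. Nog was at -0.25 ± 0.31, with a 95% interval of the fold of 0.542 to 1.31. Smad1 averaged 20.4 ± 4.22 CPM in Lmo4gt/+ mice and 23.5 ± 2.46 CPM in wild-type mice, at -0.18 ± 0.10 (edgeR p = 0.0761, adjusted p = 0.9999). Its lowest value was 11.0 CPM in library 149, and its log2 fold change was -0.10 without libraries 122, 134 and 149. The abundant genes were bounded closely: the interval of the fold was 0.900 to 1.05 for Bmpr1a, 0.9497 to 1.26 for Bmpr2 and 0.908 to 1.19 for Smad5. Without the same 3 libraries their log2 fold changes were -0.08 for Bmpr1a, 0.01 for Bmpr2 and -0.01 for Smad5, against -0.04, 0.13 and 0.06 with them.

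In the BLA the intervals were narrow for most of the genes. The fold of Lmo4gt/+ over wild type was within 0.816 to 1.13 for Bmp3 (110.7 ± 19.2 CPM, n = 9, against 116 ± 18.3 CPM, n = 11), 0.938 to 1.22 for Chrd, 0.889 to 1.19 for Nog and 0.937 to 1.34 for Bmp7. It was within 0.912 to 1.01 for Bmpr1a, 0.942 to 1.08 for Bmpr2, 0.948 to 1.09 for Smad1 and 0.903 to 1.05 for Smad5. These 8 intervals exclude a change of 1.5-fold. Without BLA libraries 129, 149, 156 and 159 none of the 10 genes was called, and the log2 value was -0.03 for Bmp3, 0.12 for Chrd and 0.12 for Nog. With all libraries the intervals of Bmp4 (0.617 to 1.84) and Bmp6 (0.850 to 1.84) do not exclude it. Bmp6 was at a log2 of 0.32 ± 0.27 (edgeR adjusted p = 0.998), and 0.00 without library 127, which held 6.00 CPM of Bmp6 and 504 CPM of Ttr. In that library the summed level of the 8 choroid plexus and ependymal markers was 631 CPM, against a median of 8.83 CPM in the Lmo4gt/+ and 12.8 CPM in the wild-type BLA libraries.

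**Figure D5:**
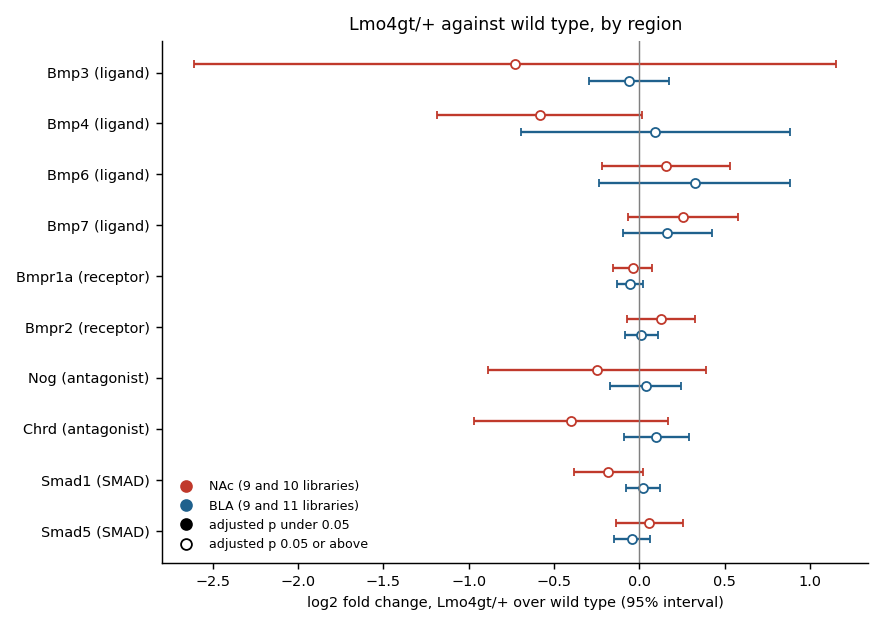
Log2 fold change of each BMP gene, Lmo4gt/+ over wild type, with 95% intervals, the NAc (9 and 10 libraries) above the BLA (9 and 11 libraries) for each gene. Every interval includes 0, and the widest is that of Bmp3 in the NAc.

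Of the other pathway genes, 0 of 47 were called between genotypes in the NAc and 0 of 48 in the BLA by edgeR. At an unadjusted p under 0.05 there were 5 in the NAc (Gdf10, Fstl1, Bmper, Smad7 and Id3, each lower in Lmo4gt/+ mice), against 2.67% of all genes, and 3 in the BLA (Rgmb, Tgfbr3 and Eng, each higher), against 4.11%, named after their values were seen. None of these passed the adjusted threshold.

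Whether the regional difference depended on genotype was tested over 38 libraries of 19 mice. None of the 18325 genes was called by edgeR (0%), so 0 of the 10 BMP genes were. At an unadjusted p under 0.05 there was 1 BMP gene by edgeR, against 2.96% of all genes, 2 by DESeq2 against 4.02%, and 1 by voom against 3.35%. The gene by edgeR and voom was Smad1, whose interaction was a log2 of -0.22 ± 0.09 (edgeR p = 0.0223, adjusted p = 0.9999), and by DESeq2 it was Smad1 and Chrd. Chrd was at -0.52 ± 0.25 by edgeR (p = 0.0516). A negative value means a lower NAc to BLA ratio in Lmo4gt/+ than in wild-type mice. The largest interactions in size, those of Bmp3 (-0.85 ± 0.95) and Bmp4 (-0.62 ± 0.47), had the widest errors. Without mice 122, 127, 129, 134, 149, 156 and 159 the interactions were -1.62 for Bmp3, -0.49 for Bmp4, -0.35 for Chrd and -0.20 for Smad1 (p = 0.0427), and that of Nog was -0.70 (p = 0.0401) against -0.45 with them; the adjusted p was 0.927 for Bmp3, Nog, Chrd and Smad1.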

How the data were processed

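For each of 39 libraries the authors deposited raw read counts for Ensembl genes, without normalization. Per the submitters' processing notes, the build was mm9 and the tools were DESeq2, HTSeq 0.11.1, HISAT2 (no version) and MultiQC 1.7; their settings, strand included, are not given there. Names, NCBIM37 positions and exon lengths came from GENCODE vM1, matched on identifiers without version (32708 of 51826); the files carry later versions, so gene limits may differ. Reads not assigned to a gene (24.7% to 38.1% of reads) were left out of library sizes.

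CPM values are counts over the sum of gene rows. Tests used edgeR 4.0.16 (R 4.3.3): TMM, filterByExpr with a minimum count of 10, robust quasi-likelihood F tests, two-sided, Benjamini-Hochberg over all genes tested, threshold 0.05. Genotype was compared within a region; regional and interaction fits kept the mouse as a block. Libraries of the same number were taken as 1 mouse because the titles' numbers make the 11 wild-type and 9 Lmo4gt/+ mice of the design text. The expression data lend this weak backing: deviations from group means correlated with a median r of 0.04 within 19 same-number pairs (6 over 0.1, 7 highest with their own number), against -0.01 between mice. P-values rest on the spread between libraries of different mice, and in blocked fits on that of the regional difference. With 1 library per mouse and region, spread from mice, punches and library preparation cannot be told apart. DESeq2 1.42.0 and limma 3.58.1 (voom) were alternatives. The 10 genes, the pathway and marker lists and the tests were chosen with earlier results of these data known. All 10 genes were named; of other pathway genes, up to 3 called per role and direction by size; for likeness, the 3 highest correlations per gene among named genes (those of Bmpr1a are not reported here). Gdf1 and Drd1 had no match by symbol.

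The genes lie on NCBIM37 (1-based) as follows: Bmp3 (ENSMUSG00000029335.5) on chromosome 5, 99283458 to 99309979, plus strand; Bmp4 (ENSMUSG00000021835.14) on 14, 47003195 to 47010344, minus; Bmp6 (ENSMUSG00000039004.5) on 13, 38436995 to 38592183, plus; Bmp7 (ENSMUSG00000008999.7) on 2, 172693513 to 172765822, minus; Bmpr1a (ENSMUSG00000021796.14) on 14, 35223920 to 35316527, minus. Bmpr2 (ENSMUSG00000067336.6) lies on 1, 59821481 to 59927703, plus; Nog (ENSMUSG00000048616.4) on 11, 89161952 to 89163873, minus; Chrd (ENSMUSG00000006958.13) on 16, 20733200 to 20742457, plus; Smad1 (ENSMUSG00000031681.16) on 8, 81862294 to 81923417, minus; Smad5 (ENSMUSG00000021540.16) on 13, 56804371 to 56843738, plus. All are protein-coding.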

Additional observations from a re-analysis of the deposited data

Results flagged for a closer look

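Within a group, 9 single values of the 10 genes stood apart from the rest of their group by more than Dixon's limit, in groups of at most 10 libraries; 30 groups were tested, and chance flags about 1 in 20. For the ligand Bmp3 they were NAc library 122 of the Lmo4gt/+ group (21.2 CPM, next 2.11) and NAc library 134 of the wild-type group (28.5 CPM, next 8.96). For the antagonist Chrd they were the same libraries, 122 (15.7 CPM, next 8.01) and 134 (19.97 CPM, next 9.40). These had 547 and 914 CPM of Slc17a7, and their part in the values was not tested.

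In Lmo4gt/+ NAc library 149, Bmp6 (9.97 CPM, next 6.94) and Bmpr2 (642 CPM, next 461) were the highest. Smad1 was the lowest there (11.0 CPM, next 18.7). That library had the largest share of reads not assigned to a gene, 38.1%. Lmo4gt/+ BLA library 127 was the highest in Bmp6 (6.00 CPM, next 3.20). Lmo4gt/+ NAc library 147 was the highest in Bmpr1a (84.2 CPM, next 73.4).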

How the results depend on the processing

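The count of called BMP genes stayed within 1.5 times its value under 58 of 58 alternatives (DESeq2, voom, DESeq2 size factors, library totals alone, no low-count filter, libraries or mice left out, the mouse block, a marker covariate). Without the replicate block it was 8 in Lmo4gt/+ mice and 9 in wild-type mice for NAc against BLA and 0 for the interaction, the same counts as with it. Leaving out each mouse gave 8 to 9 called genes in Lmo4gt/+ mice, and 9 in wild-type mice each time. Over these, Bmp3 ran from -6.80 to -5.97 in Lmo4gt/+ mice and -5.66 to -5.07 in wild-type mice, and Chrd from -3.06 to -2.80 and -2.53 to -2.31. Library totals alone, chosen after seeing the data, moved the median of all genes in the wild-type regional comparison to 0.13, against 0.04, and no called BMP gene changed sign.

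In the tally of single values, fits leaving out each mouse in turn entered only for genes called in the main regional fits. The added gene called without mouse 149 in Lmo4gt/+ mice is thus not in it. Of the values tallied 542 kept direction and side, and 1 passed that had not (Bmpr2, without the 7 mice named above). Another 9 values, none called, changed sign. The cause of these 9 changes was not tested. Between genotypes these were Bmp4 in the BLA without library 127 (-0.00604), Smad5 in the NAc with the marker covariate (-0.0168) and without libraries 122, 134 and 149 (-0.00599), and Bmp6 in the NAc without those libraries (-0.0111). With library totals alone they were Bmp4 in the NAc against the BLA of Lmo4gt/+ mice (0.00355) and the Bmpr1a interaction (-0.00484). Without mice 122, 127, 129, 134, 149, 156 and 159 they were the interactions of Bmp6 (0.0471), Bmp7 (-0.0695) and Bmpr1a (-0.0539). Depth limits Bmp4 (4 to 64 reads a library) and Bmp3 in the NAc (from 4 reads).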
